A study of Mus musculus with 2 samples.

Results

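Polycomb genes encode the subunits of 3 families of chromatin complexes. Polycomb repressive complex 2 (PRC2) methylates histone H3 on lysine 27, PRC1 attaches ubiquitin to histone H2A, and PR-DUB (Polycomb repressive deubiquitinase) takes that ubiquitin off again. The 34 genes described here were chosen by name, without a rule on measured values but with earlier results of these data known. They are the 34 rows of the gene tables, of 43346 with an Ensembl identifier, whose identifier maps to a fixed list of symbols. They were sorted into the PRC2 core (6 genes), PRC2 accessory subunits (5), the catalytic subunits of PRC1 (2), canonical PRC1 (10), variant PRC1 (8) and PR-DUB (3).

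The tissue was limb of mouse embryos of strain B6NCrl at day 10.5, sexes mixed, with no treatment and no allele named in the labels. There was a single group with 2 biological replicates, and each replicate was a pool: 69 embryos for replicate 1 and 51 for replicate 2. Total RNA longer than 200 nt was sequenced from 10 ng per library with spike-in RNAs added. Expected counts (estimated reads per gene) summed to 40509328 in replicate 1 and 43983028 in replicate 2, and the 34 genes took 0.345% and 0.358% of the counts of all Ensembl genes. Levels are given as TPM, a length-normalised abundance on which genes can be compared with each other. At a TPM of 1 or more in replicate 1 and in replicate 2 were 7 of 7 markers of limb mesenchyme, 0 of 3 of the neural tube, 0 of 3 of the liver and 2 of 3 of the heart. The liver marker Afp reached 1.81 TPM in replicate 1 alone (0.65 in replicate 2), and the heart markers Myl7 and Tnnt2 were at 6.72 and 5.72 and at 1.74 and 3.33 TPM.

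As background, PRC2 and PRC1 keep developmental regulators silent where they are not needed, and the Hox clusters are their best known targets. In the limb these complexes restrain Hox and other patterning genes, and loss of their subunits in mice shifts skeletal identity or disturbs limb patterning. Several subunits are encoded by families of related genes, and the family member that a complex takes up decides which subtype of the complex is made.

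The leading transcript of a gene is the one with the largest share of its TPM. In Kdm2b and Phc2 it carried a shortened coding sequence and started far downstream of the transcript with the longest one, at an internal start. The 250 bases ahead of both starts are printed for these 2 genes because the split between starts is what their results turn on. They run 5′ to 3′ on the strand of the gene and come from RefSeq on GRCm38.p6, and capitals mark each CG dinucleotide. The Kdm2b windows lie at chr5:122900351-122900600 (internal) and chr5:122989100-122989349 (long), both on the minus strand. The Phc2 windows lie at chr4:128727321-128727570 (internal) and chr4:128654452-128654701 (long), both on the plus strand.
Kdm2b internal start: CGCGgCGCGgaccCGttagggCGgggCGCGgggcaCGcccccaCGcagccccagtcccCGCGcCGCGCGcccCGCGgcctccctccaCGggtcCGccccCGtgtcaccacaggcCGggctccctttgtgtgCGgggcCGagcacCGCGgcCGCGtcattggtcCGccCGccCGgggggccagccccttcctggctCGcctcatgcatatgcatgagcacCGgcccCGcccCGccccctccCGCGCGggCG
Kdm2b long start: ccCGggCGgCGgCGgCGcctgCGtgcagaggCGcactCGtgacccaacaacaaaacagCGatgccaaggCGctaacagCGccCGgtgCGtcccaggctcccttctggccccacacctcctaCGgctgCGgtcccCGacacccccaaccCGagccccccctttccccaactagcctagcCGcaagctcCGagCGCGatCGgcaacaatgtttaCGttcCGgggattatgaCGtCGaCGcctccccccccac
Phc2 internal start: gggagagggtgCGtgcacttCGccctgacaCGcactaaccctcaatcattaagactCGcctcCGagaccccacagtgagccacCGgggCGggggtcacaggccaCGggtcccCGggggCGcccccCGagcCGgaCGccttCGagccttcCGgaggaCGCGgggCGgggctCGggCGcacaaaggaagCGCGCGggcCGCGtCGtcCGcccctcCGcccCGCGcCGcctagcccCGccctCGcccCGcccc
Phc2 long start: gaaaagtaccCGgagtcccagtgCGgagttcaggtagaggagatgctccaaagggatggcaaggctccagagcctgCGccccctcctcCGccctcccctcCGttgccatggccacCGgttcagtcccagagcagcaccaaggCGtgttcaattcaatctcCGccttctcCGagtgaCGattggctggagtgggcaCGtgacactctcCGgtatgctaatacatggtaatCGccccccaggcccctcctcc
The internal Kdm2b window holds 38 CG dinucleotides and the long one 27. The internal Phc2 window holds 34 and the long one 13. A window of the same length was found for 30 of the 34 genes and lay within 200 bases of the leading start in 27, with a median of 22 CG dinucleotides over the 27. The median was 16 over the 11958 windows of expressed protein-coding genes and 6 over all 32817 windows, of which 7.87% held none. Unlike the median of 22, those medians were taken without the 200-base rule and without a limit to a single window per gene. Both internal windows were thus richer in CG than the window at the long start of the same gene. The RefSeq start lay 5 bases from the annotated start of the leading Kdm2b transcript and 14 bases from that of Phc2. CG count is a description of these letters, and methylation was not measured.

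Most Polycomb genes were expressed, and as a set they sat close to the middle of the expressed genes. At least 1 TPM in replicate 1 and in replicate 2 was reached by 32 of 34 genes, against 55.2% of all protein-coding genes. The exceptions were Cbx7, at 0.92 and 1.1 TPM in replicates 1 and 2, and Phf19, at 0.40 and 0.32 TPM. The median level of the 34 genes was 24.96 TPM, the median of expressed protein-coding genes was 21.3 TPM (quartiles 7.37 and 56.9), and 17 of the 34 were above that median. A level of 100 TPM or more in both libraries was reached by 6 genes: Rbbp4, Rbbp7, Mtf2, Cbx2, Bap1 and Ezh2. The same level was reached by 13.4% of expressed protein-coding genes. From Rbbp4 to Phf19 the levels spanned 1335-fold.

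**Figure D1:**
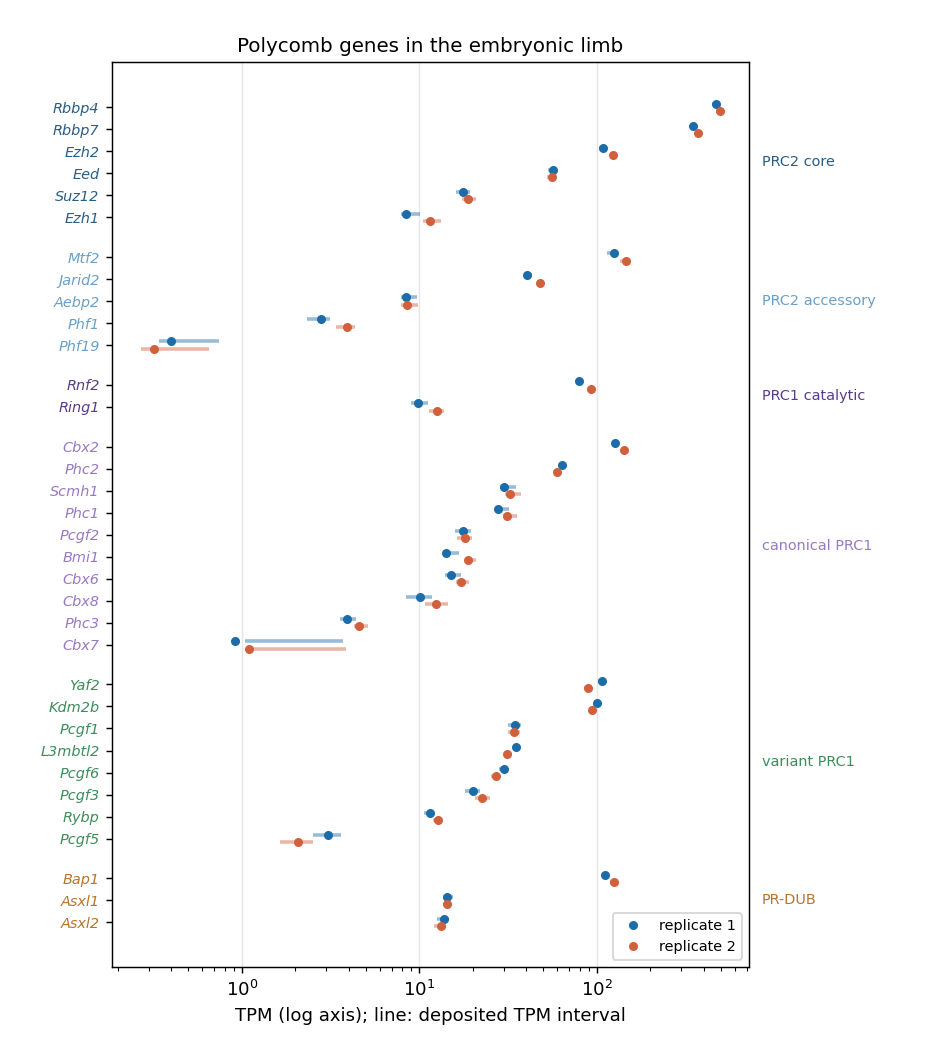
TPM of each of the 34 Polycomb genes on a log axis, 1 point per library (blue, replicate 1; orange, replicate 2), with the deposited TPM interval as a line, grouped by complex. Each complex holds genes at very different levels, from Rbbp4 at 468 and 493 TPM to Phf19 at 0.40 and 0.32 TPM, and the 2 libraries lie close together for most genes.

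Among the catalytic subunits of PRC2, Ezh2 was far above Ezh1. Ezh2 (ENSMUSG00000029687.12, chr6:47530139-47595341 on GRCm38, the assembly also called mm10, minus strand), the main H3K27 methyltransferase of dividing cells, was at 108 TPM in replicate 1 and 124 TPM in replicate 2. Ezh1, its relative that prevails in many resting tissues, was at 8.46 and 11.4 TPM. The 2 genes did not overlap in either library, and their mean ratio was 11.8-fold (log2 ratio 3.55 ± 0.17, SD, n = 2). Of the summed TPM of both genes, Ezh2 took 92.1% ± 0.86 (SD, n = 2), and 93.1% when only transcripts with a complete coding sequence were summed.

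The scaffold subunits of PRC2 were not at equal levels. Eed, which reads the methyl mark and stimulates the enzyme, was at 56.6 and 55.6 TPM. Suz12, the scaffold that holds the complex together, was at 17.6 and 18.9 TPM, below Eed in both libraries (mean ratio 3.08-fold). A Suz12 transcript with a retained intron, Suz12-203 (651 nt), took 30.6% and 27.7% of the TPM of Suz12. It did so on 79 and 80 of the 1345 and 1475 expected counts of the gene. The remaining core genes encode the histone-binding WD40 proteins, which also serve other chromatin complexes: Rbbp4 was at 468 and 493 TPM and Rbbp7 at 346 and 370 TPM.

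The order of Rbbp4 and Rbbp7 depended on which transcripts were summed. Over all transcripts Rbbp4 was higher (1.34-fold; log2 ratio 0.43 and 0.41), and the deposited intervals did not overlap. The leading Rbbp4 transcript was Rbbp4-203, a 722 nt transcript with no coding call in the annotation, at 64.5% and 59.1% of the TPM of Rbbp4 (chr4:129307100-129335370, minus strand). With complete coding transcripts only, Rbbp4 was at 154 and 189 TPM and Rbbp7 at 345 and 368 TPM, so the log2 ratio turned to -1.16 and -0.96. Counts were split otherwise than TPM, because a short transcript needs few reads for a high TPM: complete coding transcripts took 74.5% and 78.1% of the Rbbp4 counts. Of the 31-base stretches of the leading complete coding Rbbp4 transcript, 39.3% also occur in other annotated genes, 213 in all, so reads from them could be divided among these genes. The gene that shared the most, Gm26722 (17.6% of the stretches), was at 0.53 and 0.56 TPM. Levels of the other sharing genes are not given here.

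The accessory subunits split PRC2 into subtypes. Jarid2 and Aebp2 mark PRC2.2. Jarid2, which helps recruit the complex to chromatin, was at 40.5 and 47.8 TPM. Aebp2, a zinc finger subunit that stimulates the enzyme, was at 8.47 and 8.51 TPM, lower by 5.18-fold on average and with intervals that did not meet those of Jarid2 in either library. The leading Aebp2 transcript, Aebp2-201, carries a coding sequence of 822 nt against 1512 nt in the longest one and took 46.0% and 49.4% of the TPM of the gene. Transcripts with the long coding sequence took 10.7% and 9.97%. A further 24.2% and 23.6% lay in a transcript not matched to the annotation, whose coding length is not known here.

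The Polycomb-like proteins Mtf2, Phf1 and Phf19, which bind CpG-rich DNA, mark PRC2.1, and here Mtf2 stood far above its relatives. Mtf2 was at 124 and 146 TPM, Phf1 at 2.78 and 3.92 TPM, and Phf19 at 0.40 and 0.32 TPM on only 37 and 31 expected counts. No intervals overlapped in these pairs, and Mtf2 took 97.3% ± 0.23 (SD, n = 2) of the TPM of the family. Much of the Mtf2 TPM (53.7% and 55.9%) was assigned to transcripts whose coding sequence is annotated as incomplete. Whether the RNA itself was shorter was not tested. The leading transcript, Mtf2-208 (718 nt, coding sequence annotated as incomplete), took 39.7% and 44.1% of the TPM of the gene, and complete coding transcripts reached 20.96 and 21.5 TPM. On that count Mtf2 still exceeded Phf1 (log2 ratio 2.91 and 2.45) and took 85.4% of the family. Complete coding transcripts held 39.5% and 37.98% of the Mtf2 counts.

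The level of Phf1 rests on a locus with a neighbour on the opposite strand. Of the 31-base stretches of Phf1-201, its leading transcript, 23.7% also occur in Cuta, which lies on the other strand and was at 146 and 140 TPM. Whether counting used strand is not stated in the sources used here, so the 173 and 254 counts of Phf1 may hold reads of Cuta, and this was not tested.

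In PRC1 the catalytic subunit Rnf2 prevailed over Ring1. Both encode RING-type ligases that ubiquitinate histone H2A, and every PRC1 holds 1 of them. Rnf2 was at 79.3 and 93.2 TPM and Ring1 at 9.84 and 12.6 TPM. Their intervals were apart in both libraries, with a mean ratio of 7.72-fold, and Rnf2 took 88.5% ± 0.61 (SD, n = 2) of their sum. Nearly all Rnf2 was complete coding (75.5 and 88.4 TPM), and the share of Rnf2 on that basis was 89.2%.

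The Pcgf proteins bind Rnf2 or Ring1 and set the subtype of PRC1. Of the summed TPM of the 6 Pcgf genes, Pcgf1 took 28.5%, Pcgf6 23.7%, Pcgf3 17.5%, Pcgf2 14.7%, Bmi1 13.6% and Pcgf5 2.12% (means, n = 2). No single gene took most of the sum, as Ezh2, Mtf2 and Rnf2 did in their families. Pcgf1 and Pcgf6 were apart in both libraries over all transcripts (1.20-fold) and close to equal over complete coding ones (1.06-fold). Bmi1 and Pcgf2, the pair that builds canonical PRC1, could not be ranked: Bmi1 was at 14.1 and 18.8 TPM, Pcgf2 at 17.5 and 18.0 TPM, their intervals overlapped, and the sign of their log2 ratio differed between libraries (-0.31 and 0.07). The Bmi1 transcript shares 31.1% of its 31-base stretches with other genes, chiefly the pseudogene Gm5946, which was at 0.04 and 0.05 TPM.

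Cbx proteins carry the chromodomain that ties canonical PRC1 to methylated H3K27, and Cbx2 was the leading gene among the 4 described here. Cbx2 was at 126 and 143 TPM, Cbx6 at 15.04 and 17.2 TPM, Cbx8 at 10.1 and 12.4 TPM and Cbx7 at 0.92 and 1.1 TPM. The intervals of Cbx2 were above those of the other genes in both libraries, and Cbx2 took 82.6% ± 0.38 (SD, n = 2) of the sum. Cbx2 and Cbx8 are neighbours, with 5034 bases between them on chromosome 11, and had log2 ratios of 3.64 and 3.52. Cbx6 and Cbx7 lie 81118 bases apart on chromosome 15 and differed 16.0-fold on TPM and 7.43-fold on the deposited posterior mean TPM. Cbx7 rests on 82 and 88 counts and has a posterior mean of 2.16 and 2.28 TPM, and its deposited intervals (1.04 to 3.74 and 1.15 to 3.85 TPM) lie above its TPM.

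Cbx8 was lower still when transcripts without a coding call were left out. Its leading transcript, Cbx8-202, has 789 nt and no coding call, and took 37.4% and 50.7% of the TPM, whereas the full coding Cbx8-201 took 42.0% and 43.0%. Complete coding Cbx8 was at 4.23 and 5.35 TPM and took 80.8% and 79.9% of the Cbx8 counts. By share of TPM the coding transcript was ahead in replicate 1 and Cbx8-202 in replicate 2. Cbx8-202 rests on 69 and 121 expected counts, Cbx8-201 on 393 and 518. Their deposited intervals overlapped in replicate 1 (2.00 to 5.39 and 3.68 to 4.62 TPM) and in replicate 2 (3.68 to 7.85 and 4.75 to 5.79 TPM). The order of the 2 transcripts was therefore not resolved in either library.

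The Phc proteins polymerise through a SAM domain and cluster PRC1 on chromatin. Phc2 was at 64.0 and 59.6 TPM, Phc1 at 28.0 and 31.03 TPM and Phc3 at 3.91 and 4.55 TPM, with intervals apart in every pair and both libraries. Phc2 took 64.7% ± 2.93 (SD, n = 2) of the sum. Scmh1, a SAM and MBT domain partner of the Phc proteins, was at 29.9 and 32.4 TPM, of which 10.0 and 11.5 TPM were complete coding. Complete coding transcripts took 56.3% of the Scmh1 counts in each library. A pair of Scmh1 transcripts without coding call, Scmh1-210 and Scmh1-214, took 22.8% and 22.0% in replicate 1 and 23.1% and 23.0% in replicate 2.

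Most Phc2 came from the internal start printed above. Transcripts starting between positions 128727581 and 128727982 of chromosome 4 took 92.0% and 92.4% of the TPM of Phc2 (ENSMUSG00000028796.13, chr4:128654702-128752881, plus strand). The leading one, Phc2-202, has 2535 nt and a coding sequence of 969 nt, against 2550 nt in the longest form, and took 75.7% and 75.2%. The 2 libraries gave nearly the same split.

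Variant PRC1 holds Rybp or Yaf2 in place of a Cbx protein, and Yaf2 was the higher of the pair. Yaf2 was at 107 and 88.9 TPM and Rybp at 11.4 and 12.8 TPM, apart in both libraries (log2 ratio of Rybp to Yaf2 -3.23 and -2.79), and Yaf2 took 88.9% of the sum. Complete coding transcripts gave Yaf2 86.4%. A Yaf2 transcript without coding call made up the rest of Yaf2, 18.7% and 21.8% of the TPM of the gene.

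The subunits that define the variant subtypes were at 2.06 to 99.9 TPM. Pcgf1, of the PRC1.1 complex, was at 34.7 and 34.3 TPM. Of its 31-base stretches, 47.5% also occur in the annotated gene Gm8930, for which no level was found in these data. Pcgf6 and L3mbtl2, both of PRC1.6, were at 30.1 and 27.2 TPM and at 35.0 and 31.2 TPM. Pcgf3 and Pcgf5 stand in for each other in related complexes: Pcgf3 was at 20.0 and 22.5 TPM and Pcgf5 at 3.06 and 2.06 TPM, an 8.45-fold difference with intervals apart in both libraries.

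Kdm2b, the zinc finger protein that brings PRC1.1 to unmethylated CpG islands, was at 99.9 and 93.9 TPM (ENSMUSG00000029475.13, chr5:122870665-122989823, minus strand). A single transcript, Kdm2b-201, took 84.6% and 85.3% of this level, and it starts at position 122900355, within the last 5 bases of the internal window printed above. The long starts, grouped within 500 bases, took 5.18% ± 1.00 and 5.60% ± 0.04 (SD, n = 2). The coding sequence of Kdm2b-201 has 2328 nt and the longest one 3927 nt. KDM2B is known to have a long form with a JmjC demethylase domain and a short form from an internal start without it, and both keep the CpG-binding domain. Of the 31-base stretches of Kdm2b-201, 33.7% also occur in other genes, 16.96% in Rnf34 on the opposite strand, which was at 59.9 and 68.1 TPM.

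**Figure D2:**
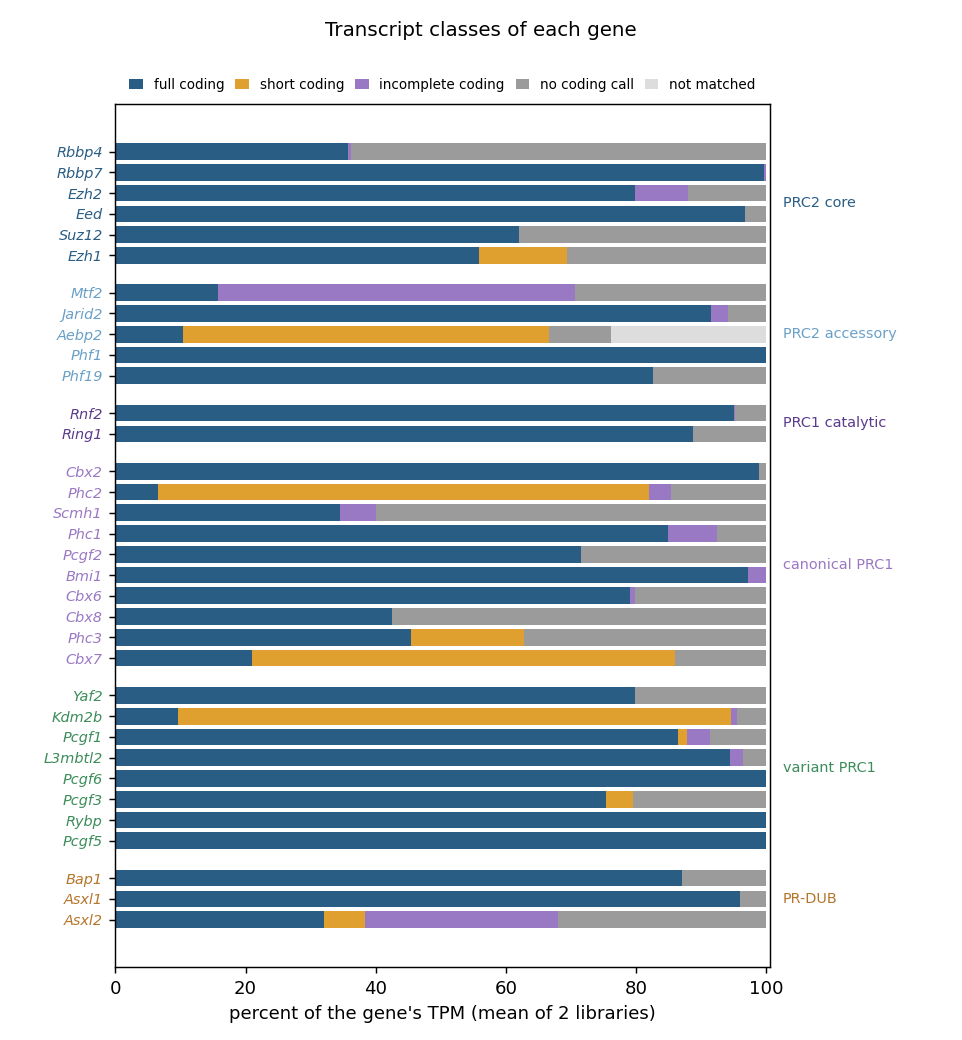
Share of each gene's TPM in transcripts with a full coding sequence (at least 80% of the longest of the gene), a short one, an incomplete one, no coding call, or no match in the annotation (x axis, percent, mean of 2 libraries). By TPM, short coding transcripts prevail in Kdm2b, Phc2, Aebp2 and Cbx7. Transcripts without a complete coding sequence hold most of the TPM of Rbbp4, Mtf2, Cbx8, Scmh1 and Asxl2. By counts, complete coding transcripts took means of 76.3% of Rbbp4, 80.3% of Cbx8, 56.3% of Scmh1, 68.8% of Asxl2 and 38.7% of Mtf2.

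In PR-DUB the enzyme exceeded its cofactors. Bap1, the deubiquitinase, was at 111 and 125 TPM. Asxl1 and Asxl2, which bind Bap1 and activate it in alternative complexes, were at 14.3 and 14.3 TPM and at 13.8 and 13.3 TPM, with overlapping intervals and a log2 ratio of 0.06 and 0.11. The pair came apart when only complete coding transcripts were summed, at 13.6 and 13.8 TPM for Asxl1 and 4.90 and 5.44 TPM for Asxl2. Asxl2-205 (1483 nt), whose coding sequence is annotated as incomplete, took 33.2% and 26.1% of the TPM of Asxl2. Complete coding transcripts took 66.8% and 70.8% of the Asxl2 counts.

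In all, 20 of 22 pairs of relatives or partners were called, meaning that each library kept the deposited TPM intervals of the 2 genes apart and in the same order. The level of these intervals is not stated in the tables, and they cover neither biological spread nor the choice of transcripts. The share of other gene pairs that this rule would call was not computed, so 20 of 22 cannot be called high or low. Bmi1 with Pcgf2 and Asxl1 with Asxl2 were not called. A 1.5-fold difference in both libraries was reached by 17 pairs over all transcripts and by 20 over complete coding transcripts. Rbbp4 with Rbbp7 was the only pair among the 22 whose mean ratio was called and changed direction between these sums. In the order of all 34 levels, 10 of 33 neighbours had intervals apart in both libraries, and 14 differed by more than the sum of their SDs, so most neighbouring ranks were not resolved.

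**Figure D3:**
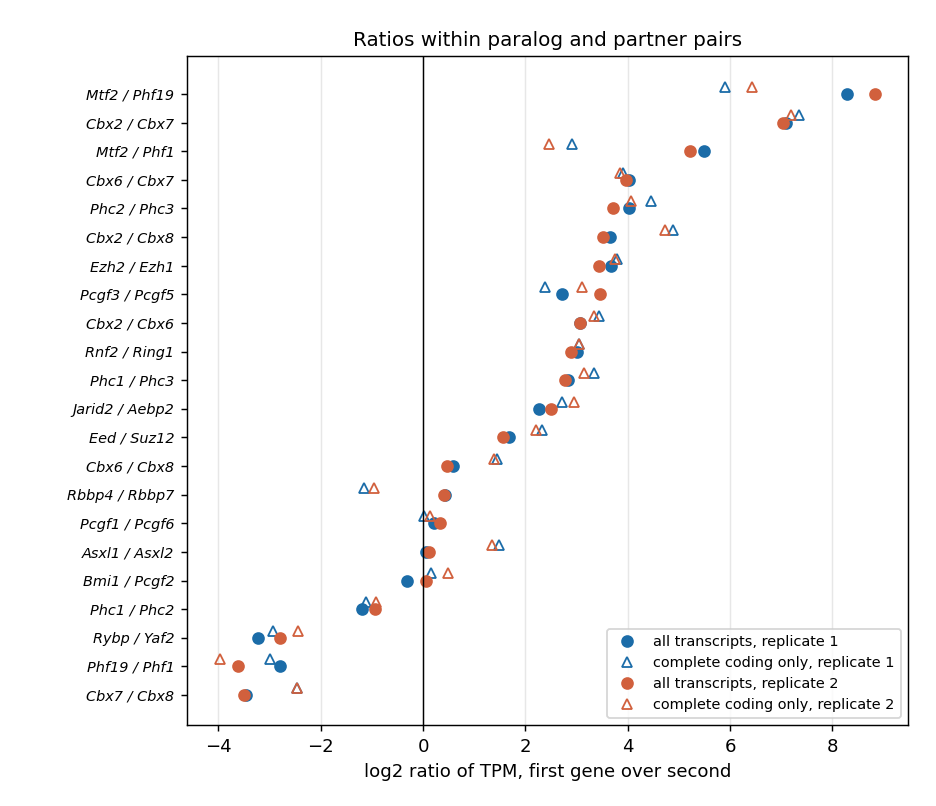
Log2 ratio of TPM within each of the 22 pairs, first gene over second (x axis), for each library, from all transcripts (filled circles) and from complete coding transcripts only (open triangles); the line at 0 is an equal level. Rbbp4 over Rbbp7 crosses the line (0.43 and 0.41 against -1.16 and -0.96), Mtf2 over Phf1 shrinks from 5.48 and 5.22 to 2.91 and 2.45, and the mean of Ezh2 over Ezh1 goes from 3.55 to 3.76 and that of Rnf2 over Ring1 from 2.95 to 3.05.

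Across the 34 genes, 252 transcripts were listed, of which 249 were matched to the annotation used for coding calls. By its mean share, the leading transcript was full coding in 27 genes, against 86.9% of expressed protein-coding genes. Asxl2 is among the 27, although in replicate 1 the incomplete Asxl2-205 (33.2%) led over the full coding Asxl2-202 (30.3%). The leading transcript was short coding in 4 genes (Kdm2b, Phc2, Aebp2 and Cbx7), against 3.58% of expressed protein-coding genes. It had an incomplete coding sequence or no coding call in 3 (Mtf2, Rbbp4 and Cbx8), against 8.89%. The 34 genes include Cbx7 and Phf19, which were below the 1 TPM rule that the genes of these percents passed. Cbx7 rests on 82 and 88 counts, and its leading share was 74.4% and 34.4%. The leading transcript took a median of 73.9% of its gene's TPM, 80% or more in 12 genes and less than 50% in 10. The same shares over expressed protein-coding genes are not given here, so whether this split is usual was not tested. In the median Polycomb gene 85.4% of the TPM was complete coding, and in the median expressed protein-coding gene 95.3%. On complete coding transcripts the median level of the 34 genes was 16.5 TPM and that of expressed protein-coding genes 16.3 TPM, again with 17 of the 34 above it. Pcgf5-202 took 47.0% of Pcgf5 in replicate 1 and 0% in replicate 2, on 117 and 84 counts for the whole gene.

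The only comparison that the labels allow is 1 pool with the other, for which 2 libraries give no p-value below 0.5. Differences are therefore given as log2 CPM (library-scaled counts) after TMM scaling, replicate 2 minus replicate 1, with a 95% exact binomial interval that covers counting error only. At least 1.5-fold apart was 1 of the 34 genes, and of the 16860 genes past a mean count of 10, 14.6% were that far apart. That gene was Pcgf5, lower in replicate 2 (-0.66, interval -1.1 to -0.26), and 4.65% of genes were 1.5-fold lower. On the ratio of deposited TPM plus 0.1 its difference was -0.55, and no gene of the 34 was 1.5-fold apart. With spike-in scaling Pcgf5 was at -0.41, and the 1 gene past 1.5-fold was Phf1, higher in replicate 2 (0.60). The median difference of the 34 genes was -0.01, that of all these genes 0.01, and the median absolute difference was 0.12 for the 34 genes and 0.20 for all. In bulk tissue, fewer cells of a type and less RNA per cell cannot be told apart.

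The interval lay above 0 in 11 of the 34 genes (27.2% of all genes) and below 0 in 10 (26.2%). These percents are over all genes past a mean count of 10. The interval narrows as counts rise, and no share over genes of similar counts is given here. By complex the numbers of such genes were uneven. In variant PRC1, 6 of 8 genes had intervals below 0: Pcgf5, Yaf2 (-0.40, interval -0.46 to -0.34), L3mbtl2 (-0.31), Pcgf6 (-0.28), Kdm2b (-0.22) and Pcgf1 (-0.16). Pcgf3 and Rybp were at 0.05 and 0.03. In canonical PRC1 the interval was above 0 in 5 of 10 genes, with Bmi1 at 0.28 and Phc3 at 0.26, and below 0 in 1, Phc2, at -0.25.

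In the PRC2 core the interval was above 0 in 3 of 6 genes (Ezh2 0.08, Rbbp4 0.09, Ezh1 0.15) and below 0 in 2 (Eed -0.19, Rbbp7 -0.07). Among the accessory subunits Phf1 (0.35) and Jarid2 (0.06) were above 0 and none was below. Of the catalytic PRC1 genes Rnf2 was above 0 (0.09), and in PR-DUB Asxl1 was below (-0.12). Most of these differences are small beside the 1.5-fold line.

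The sign of a small difference depended on the scaling. Scaling to the spike-ins moved the median of all genes to 0.26 and the ratio of deposited TPM moved it to 0.15. With spike-ins 11 of the 34 differences changed sign, of which 5 had a TMM interval that left out 0 (Eed, Rbbp7, Pcgf1, Kdm2b and Asxl1). With TPM 6 changed sign, of which Rbbp7 had such an interval. The share of all genes that changed sign is not given here, so these numbers are not read as a trait of the 34. With spike-in scaling, 4 of the 8 variant PRC1 genes were below 0. Relative to the median gene, 6 of 8 were below it under TMM, with a group median -0.27 from it. TMM, DESeq2 size factors and spike-ins shift all genes by nearly the same amount, so they leave this position in place by construction. On the ratio of deposited TPM 6 of 8 were also below the median gene.

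**Figure D4:**
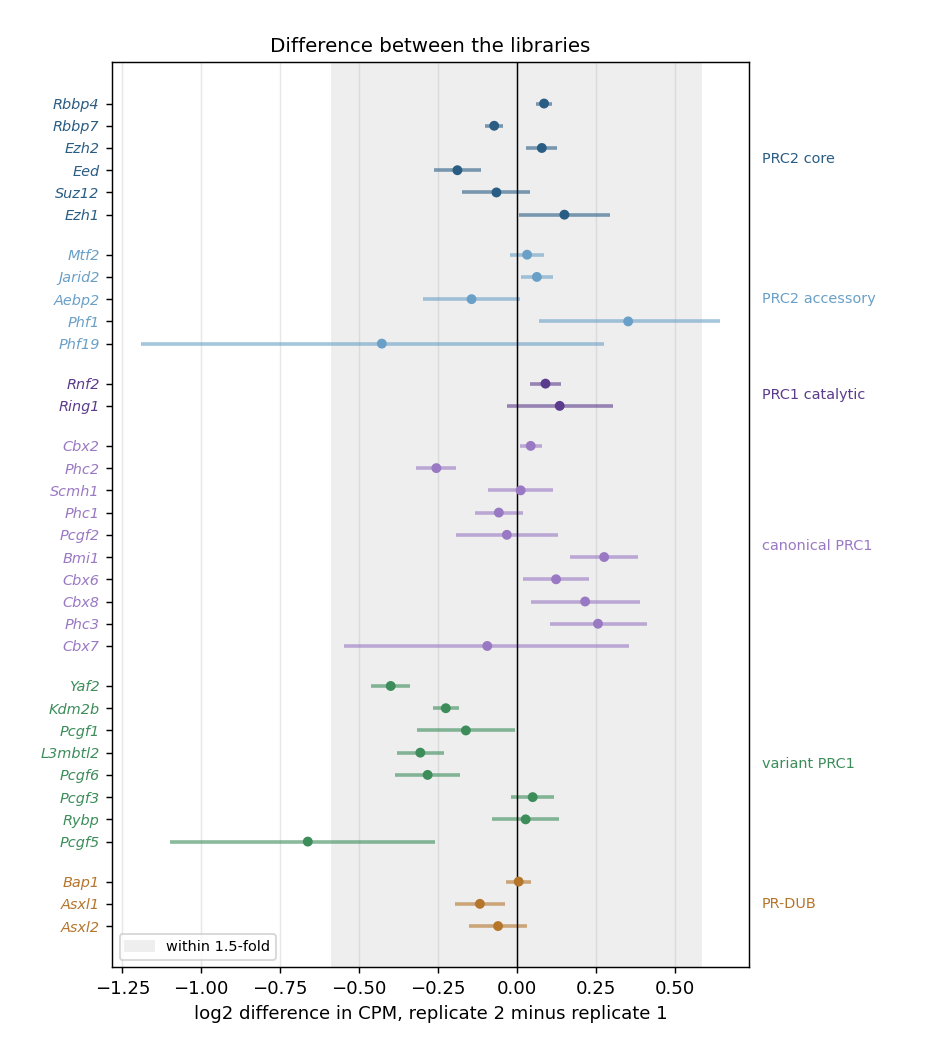
Log2 difference in CPM between the libraries, replicate 2 minus replicate 1 (x axis), for each gene by complex, with its 95% counting interval as a line; the grey band is within 1.5-fold. Pcgf5 alone lies outside the band, at -0.66, and 6 of 8 variant PRC1 genes have intervals below 0 under this TMM scaling (4 of 8 differences are below 0 with spike-ins).

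Markers of several cell types also differed between the pools. The summed TPM of 5 cartilage markers was 170 in replicate 1 and 400.4 in replicate 2, with 5 of 5 at least 1.5-fold higher, and that of 5 muscle markers was 28.6 and 70.4, with 4 of 5 at least 1.5-fold higher and Pax3 at -0.26. Among the 7 limb mesenchyme markers the hindlimb genes Tbx4 (19.7 and 41.1 TPM, 0.94) and Pitx1 (65.0 and 127 TPM, 0.79) were past 1.5-fold higher, and the forelimb gene Tbx5 was at -0.26. The sum of 5 erythroid markers was 11719 and 9542, with 5 of 5 lower. The 3 ectoderm markers summed to 117 and 87.5 and the 2 apical ridge markers to 93.2 and 70.3, and neural tube markers stayed at a sum of 0.27 and 0.21. Of 10 proliferation genes, Mki67 (0.18) and Top2a (0.23) lay above the median gene under TMM scaling and the other 8 below it, with a median of -0.12 and none 1.5-fold apart. The part of these shifts in the Polycomb differences was not tested.

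Genes that work with or against these complexes were taken from lists of 51 genes, of which 50 were in the tables and 47 were expressed, with a median of 18.1 TPM. Of the 49 past a mean count of 10, 0 were 1.5-fold higher in replicate 2 (9.96% of all genes) and 2 were lower (4.65%). These were Epop, an elongin-binding partner of PRC2.1, at 19.8 and 13.5 TPM (-0.69), and Max, a DNA-binding partner in PRC1.6, at 9.42 and 6.88 TPM (-0.59). Lcor, the other PRC2 partner found in the tables, was at 5.95 and 6.48 TPM.

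Partners of variant PRC1 were all expressed. For PRC1.1 (4 genes), Skp1a, an adaptor of ubiquitin ligases, was at 751 and 735 TPM, the deubiquitinase Usp7 at 24.1 and 27.6 TPM, and Bcorl1 lowest at 3.23 and 3.72 TPM. For PRC1.3 and PRC1.5 (7 genes), the casein kinase 2 subunit Csnk2b was at 266 and 252 TPM, Dcaf7 at 71.3 and 79.7 TPM, and the kinase subunit Csnk2a2 lowest at 4.18 and 3.42 TPM. For PRC1.6 (8 genes), the heterochromatin protein gene Cbx3 was at 526 and 549 TPM and the deacetylase Hdac1 at 257 and 283 TPM. Cbx3 and Hdac1 also serve complexes outside Polycomb.

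Partners of PR-DUB (7 of 7 expressed) were led by the glycosyltransferase Ogt at 94.6 and 121 TPM and its target Hcfc1 at 72.6 and 73.7 TPM, and Foxk1, a forkhead factor, was lowest at 2.59 and 2.57 TPM. The MBT and SAM domain relatives were the list with the lowest median among the 9 (2.25 TPM, 4 of 7 expressed). There L3mbtl3 was at 15.8 and 22.0 TPM, Sfmbt1 at 14.5 and 13.7 TPM, and L3mbtl1 at 0.03 and 0.09 TPM on 2 and 9 counts.

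Genes that act against Polycomb marks, enzymes and their partner subunits, were expressed throughout. All 3 demethylase genes of the Kdm6 family were expressed, with Kdm6b at 30.6 and 34.3 TPM, Kdm6a at 14.1 and 16.5 TPM and Uty, the Y-linked relative, at 12.6 and 13.7 TPM. Of 4 H2A deubiquitinases, Usp22 was at 116 and 141 TPM, Usp21 at 89.5 and 105 TPM and Mysm1 lowest at 18.2 and 26.2 TPM. All 8 genes of the trithorax list, which holds methyltransferases of H3 at active genes and their partner subunits, were expressed. The subunit genes Dpy30 and Ash2l were at 207 and 179 TPM and at 117 and 134 TPM. The methyltransferase Kmt2c, lowest by the mean of both libraries, was at 7.90 and 8.88 TPM. Set beside the trithorax genes, Ezh2 at 108 and 124 TPM was near Ash2l and well above the Kmt2 enzymes. Of these enzymes Kmt2d was the highest at 10.5 and 11.4 TPM (named after its values were seen).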

How the data were processed

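Deposited gene and transcript tables of each library hold expected counts, TPM, a posterior mean TPM with interval bounds of unstated level, and the isoform percent, each transcript's percent of its gene's TPM. Per the labels' protocols and the sample text files, the authors quantified transcriptome alignments on mm10 with GENCODE M4, separately for each library. Which aligner and quantifier were run, and whether strand was used, is not stated in the sources used here. The deposited effective length was the length minus 99 nt, so short transcripts reach a high TPM on few reads.

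Symbols, positions and coding calls came from GENCODE M21 on GRCm38, matched without version, which named 42462 of 43346 Ensembl rows (98.0%). The 96 spike-in rows and 26249 other rows stayed out of library sizes, and those other rows held 0.00017% and 0.00013% of counts. TMM scaling came from edgeR 4.0.16 in R 4.3.3 on rounded expected counts, as did log2 CPM with a prior count of 2. Other steps used DESeq2 1.42.0 size factors, scipy 1.17.1, pandas 2.3.3, numpy 2.4.6 and matplotlib 3.10.9 in Python 3.11.15. Values are the mean ± SD over 2 libraries. Counting intervals (95%, exact binomial) cover counting error only. They were tried on simulated counts drawn with counting error alone, the spread they assume, so that trial could not show other spread. Reads carry no molecular identifiers, so repeated copies of 1 molecule were not separated.

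Expressed means at least 1 TPM in each library. A complete coding transcript has an intact annotated coding sequence, called full from 80% of the gene's longest and short below. Transcript starts within 500 bases were grouped. Shared sequence was the percent of a transcript's 31-base stretches found in other M21 transcripts on either strand. All 34 genes could be named, with the 2 highest and the lowest of each partner list, the leading transcript of each gene and others at 20% or more in both libraries. Other names were chosen after their values were seen. The members, pairs and lists were chosen with earlier results of these data known. Alternatives covered scaling, thresholds, posterior mean TPM, protein-coding transcripts and each library left out. The sums over complete coding transcripts, and the pair calls from protein-coding transcripts, were added after seeing the data. Of the partner lists, Ezhip had no row matched and is not analysed here.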

Additional observations from a re-analysis of the deposited data

How the results depend on the processing

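With 1 group of 2 pools, no test was made, and pool, library and any batch cannot be told apart. No paired analysis was possible because the labels give only 1 group. Leaving out a library gives no value for the difference between libraries. The count of expressed genes (29 to 33) and of called pairs (17 to 20) stayed within 1.5 times the reported 32 and 20 under every alternative run, and posterior mean TPM left the median level at 24.7. The median TPM of the 34 genes was 24.0 without replicate 2 and 24.9 without replicate 1, 27.8 after rescaling outside the mitochondrial genome, 16.7 over protein-coding transcripts and 16.5 over complete coding ones. The log2 ratio of Rbbp4 to Rbbp7 turned to -1.05 over protein-coding and -1.06 over complete coding transcripts. The median leading share of 73.9% became 66.7% with posterior means and ran from 71.3% to 74.5% with a library left out. The median difference between libraries was 0.24 with spike-in scaling and 0.13 with TPM. The count of genes 1.5-fold apart went from 1 to 0 with TPM, where a pseudocount of 0.1 was added, and to 0 at 2-fold. With spike-in scaling it stayed 1, but the gene was Phf1 (0.60) and not Pcgf5 (-0.41). With spike-in scaling 11 differences turned positive and with TPM 6. Of those with a TMM interval off 0, these were, with spike-ins, Eed (0.0651), Rbbp7 (0.18), Pcgf1 (0.0914), Kdm2b (0.0285) and Asxl1 (0.14), and, with TPM, Rbbp7 (0.10). With DESeq2 size factors Bap1 changed sign around 0 and Ezh1 no longer had an interval that left out 0. Where an alternative other than scaling or the choice of transcripts moved a value, the cause was not tested. Depth limits Phf19 (37 and 31 counts), Cbx7 (82 and 88) and Pcgf5 (117 and 84), and 3 genes (Rbbp7, Cbx2 and Cbx7) had a TPM outside their own deposited interval in both libraries.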
